A study of Mus musculus with 8 samples.

Results

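The MYC, MAX and MXD network is a group of basic helix-loop-helix leucine zipper proteins that set the rate of growth-related transcription. The 10 genes described here are Mycn, Myc, Mycl, Max, Mxd1, Mxd4, Mxi1, Mnt, Mlx and Mlxip, taken by symbol from a table of 43346 mouse genes, and all 10 symbols were found once. In the ventricle of tumor-bearing mice Mycn fell 3.48-fold, while Myc, its closest relative, and Max, the partner of both, showed no such decrease. Among the antagonists of MYC, Mxi1 rose 1.19-fold, a call near the limit of the test that was kept in 1 of 8 fits with 1 mouse left out. Mxd1, Mxd4 and Mnt did not pass the test.

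The study asked what a tumor elsewhere in the body does to the heart, and the ventricular muscle of 8 male C57BL/6 mice was used for RNA sequencing. At 7 weeks of age 4 mice received 1000000 LLC1 cells in PBS under the skin of the left flank, and 4 received PBS alone. All 8 hearts were collected 14 days later. LLC1 is a mouse line derived from Lewis lung carcinoma, so the tumor lay outside the heart and was not itself sequenced. The labels give no transgene or deletion and treat each library as 1 mouse. Mice are named by group and code (LLC1 1-2, 1-3, 1-5 and 2-2, and PBS 1-1, 1-3, 2-1 and 2-5). Library totals ran from 12480706 to 19747596 counts, and the first principal component of log2 expression, with 31.5% of the variance, separated the groups. The second, with 25.2%, set PBS 1-1 apart from the other 7 mice. The cardiomyocyte markers Myh6, Actn2, Tnnt2, Tnni3, Ryr2 and Pln together reached at least 67500 counts per 1000000 (CPM) in every mouse, while of the 4 atrial genes Sln and Myl7 stayed under 3 CPM and Nppa, which ventricle also expresses, was at 197 ± 97.1 CPM in LLC1 and 165 ± 55.9 CPM in PBS mice.

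MYC, MYCN and MYCL proteins bind DNA only when paired with MAX, most strongly at the E-box CACGTG, and there promote ribosome production, metabolism and entry into the cell cycle. MXD proteins, MXI1 and MNT compete for the same MAX and the same E-boxes and recruit repressor complexes, and a parallel branch uses MLX as the partner of the nutrient-responsive factors MondoA (Mlxip) and ChREBP (Mlxipl). In the developing heart Mycn drives the growth of the ventricular wall, and in adult heart muscle Myc responds to growth stimuli.

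The sequence the network reads also stood at or before the start of several of its own genes. RefSeq promoter windows (mm10, from 250 bases before to 50 after each transcription start) were at hand for 9 of the 10 members, and Myc had no entry. CACGTG, which reads the same on both strands, was found in 4 of the 11 windows of these 9 genes (Mxi1 has 3 windows), those of Max, Mxd4, Mnt and Mlx, against 2349 of 32851 windows of all genes, or 7.15%. The 4 matches are shown because they belong to the partner, 2 antagonists and the partner of the parallel branch, each as 30 bases on the strand of its gene with the E-box in capitals.
Max, chr12:76962234-76962263, minus strand: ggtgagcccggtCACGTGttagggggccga
Mxd4, chr5:34187912-34187941, minus strand: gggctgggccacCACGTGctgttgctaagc
Mnt, chr11:74830789-74830818, plus strand: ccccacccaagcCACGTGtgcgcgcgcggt
Mlx, chr11:101087238-101087267, plus strand: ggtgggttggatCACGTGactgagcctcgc
The E-box began 3 bases before the start of Max, 40 before Mlx, 123 before Mnt and 219 before Mxd4. That of Max thus ran across the transcription start. The last bases of each window were found in a GENCODE transcript of its gene, except for Max. Of these 4 genes none passed the test between groups, and a match of letters is not a measured binding site.

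The window of Mycn, the gene with the largest change, held no CACGTG. It held the letters TTTGGCGC, the type bound by E2F factors, at 183 and 168 bases before the transcription start, in copies that do not overlap. TTTGGCGC was chosen after this window had been read, and on either strand it occurred in 169 of the 32851 windows (0.514%) and in no other member. The 172 bases of the window that lie outside the deposited gene, chr12:12941915-12942086 on the minus strand, are printed with both copies in capitals.
Mycn: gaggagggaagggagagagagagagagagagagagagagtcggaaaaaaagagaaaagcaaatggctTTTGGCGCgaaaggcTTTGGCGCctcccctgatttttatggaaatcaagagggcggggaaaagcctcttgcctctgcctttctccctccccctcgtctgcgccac

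Mycn (ENSMUSG00000037169, chr12:12936096-12941914 in mm10) encodes N-MYC. Its level was 0.926, 1.19, 1.31 and 1.46 CPM in LLC1 1-2, 1-3, 1-5 and 2-2, from 14 to 29 reads per mouse. In PBS 1-1, 1-3, 2-1 and 2-5 it was 5.92, 5.26, 3.59 and 2.77 CPM, from 47 to 75 reads. Every tumor-bearing mouse lay below every PBS-injected mouse, and the LLC1 values were close together while the PBS values spread over a wider range. The means were 1.22 ± 0.226 CPM in tumor-bearing and 4.39 ± 1.45 CPM in PBS-injected mice (SD, n = 4 each). The log2 fold change, LLC1 over PBS, was -1.80 (SE 0.26, 95% interval -2.37 to -1.23) with an edgeR false discovery rate (FDR, adjusted over all genes tested) of 0.00273, rank 95 by p among 16111 genes tested. Without PBS 1-1, the mouse with the highest level and the one that stood apart on the second principal component, it was -1.63 (FDR 0.00163). An exact two-sided permutation test of the 8 log2 values gave p = 0.0286, the smallest that 4 against 4 mice allow. Mycn is among the genes the study itself lists from these mice, so its call is not independent evidence.

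Myc (ENSMUSG00000022346, chr15:61985341-61990374) encodes c-MYC, the most widely used paralog. It measured 3.11, 5.14, 3.88 and 6.59 CPM in the LLC1 mice and 3.60, 3.86, 3.53 and 3.25 CPM in the PBS mice, in the order of mice used for Mycn. LLC1 2-2 had 131 reads and the other 7 mice had 42 to 78. LLC1 1-2 lay below all PBS mice and the other 3 LLC1 mice above them, so the groups overlapped. The means were 4.68 ± 1.52 CPM in LLC1 and 3.56 ± 0.251 CPM in PBS mice (SD, n = 4 each), and the log2 fold change of 0.41 (SE 0.21, 95% interval -0.05 to 0.87) did not pass the test (edgeR FDR 0.252). With 1 mouse left out it ran from 0.18 (without LLC1 2-2, FDR 0.616) to 0.55 (without LLC1 1-2, FDR 0.118). A decrease of Myc of the size seen for Mycn lies outside that interval.

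Mycl (ENSMUSG00000028654, chr4:122995652-123002485), which encodes L-MYC, was close to undetected. The LLC1 mice had 2, 3, 1 and 2 reads and the PBS mice 7, 4, 4 and 3, all in the order given for Mycn. Both groups included a mouse with 3 reads, the gene did not pass the filter on low counts, and a difference was not detectable at this depth.

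**Figure D1:**
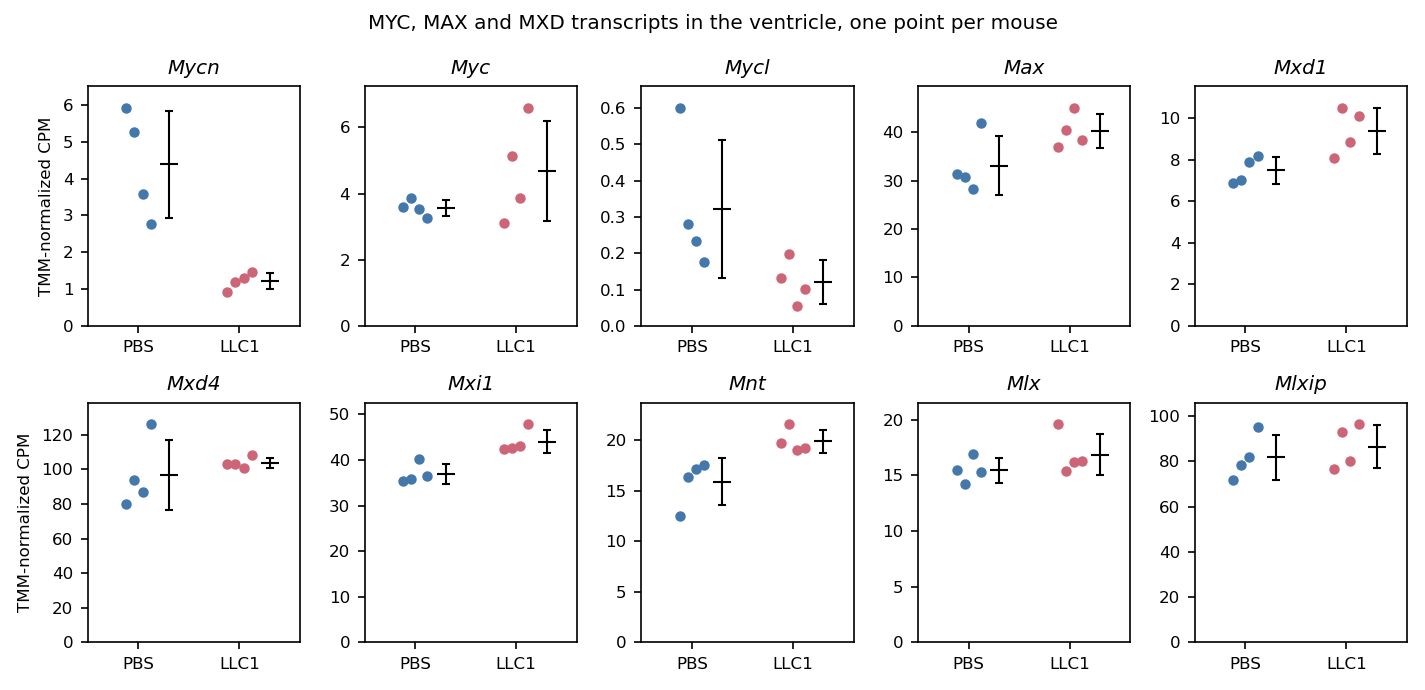
Expression of the 10 network genes in each mouse, in TMM-normalized CPM on linear axes that start at 0, with PBS mice in blue and LLC1 mice in red; black bars give the mean and SD of 4 mice. For Mycn all LLC1 points (0.926 to 1.46) lie below all PBS points (2.77 to 5.92), and for Mxi1 and Mnt all LLC1 points lie above.

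Ratios within a mouse do not depend on how libraries were scaled, and here they describe the level of Mycn relative to Myc, Max and Mycl. Mycn is on the list the study drew from these mice, so the p-values of its ratios are not independent evidence. An exact permutation p of 0.0286 is also the smallest that these group sizes allow. Reads of Mycn divided by reads of Myc came to 0.298, 0.231, 0.338 and 0.221 in the LLC1 mice and to 1.64, 1.36, 1.02 and 0.855 in the PBS mice. The highest tumor-bearing ratio was thus well under the lowest PBS ratio. The mean log2 ratio was -1.87 ± 0.29 in LLC1 and 0.24 ± 0.42 in PBS mice, a difference of -2.11 (exact two-sided permutation p = 0.0286, 0.0429 after Benjamini-Hochberg adjustment over the 3 ratios tested). The ratio to Max gave a difference of -2.07 on the log2 scale, from -2.95 ± 0.68 in PBS to -5.02 ± 0.24 in LLC1 mice (exact permutation p = 0.0286, adjusted 0.0429). The ratio to Mycl differed by -0.57 (exact permutation p = 0.257, adjusted 0.257), and it rests on the few reads of Mycl. With a prior of 2 counts that difference was -0.82 (exact permutation p = 0.0571), and with 1 mouse left out it ran from -0.87 (without LLC1 1-5) to -0.33 (without LLC1 1-3).

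Per kilobase of gene length, which allows levels of different genes to be compared, Mycn and Myc were near equal in PBS-injected hearts, at 1.33 ± 0.442 and 1.29 ± 0.0906 CPM per kb. In tumor-bearing hearts they stood at 0.371 ± 0.0687 and 1.69 ± 0.551 CPM per kb. Mycn made up 55.3, 52.2, 45.0 and 40.9% of the summed paralog level in the PBS mice and 19.6, 15.9, 22.0 and 15.6% in the LLC1 mice, with no overlap. The summed level itself overlapped between groups, at 1.44, 2.27, 1.82 and 2.85 CPM per kb in LLC1 and 3.25, 3.06, 2.42 and 2.06 CPM per kb in PBS mice. A total near that of the PBS group, as in LLC1 2-2, was therefore made of Myc for 83.6% of its level.

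**Figure D2:**
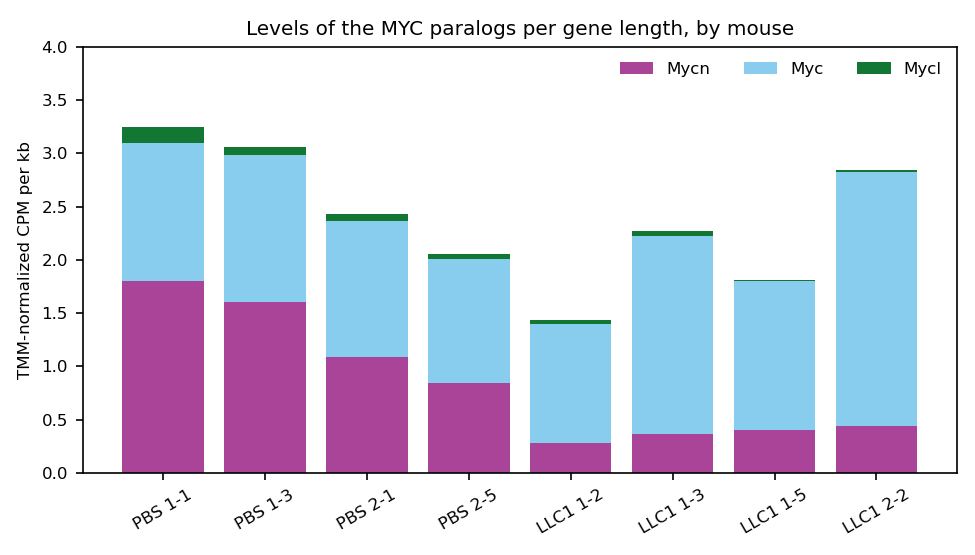
Level of the 3 MYC paralogs in each mouse, stacked, in TMM-normalized CPM per kilobase of gene length. The purple share (Mycn) takes 40.9 to 55.3% of the bar in PBS mice and 15.6 to 22.0% in LLC1 mice, while the bar heights of the groups overlap.

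Max (ENSMUSG00000059436, chr12:76937269-76962248), the obligate partner of all 3 paralogs, was far more abundant than any of them. It measured 37.0, 40.5, 45.0 and 38.4 CPM in the LLC1 mice and 31.4, 30.8, 28.2 and 41.9 CPM in the PBS mice. PBS 2-5 stood within the LLC1 range and the other 3 PBS mice stood below it. The log2 fold change was 0.28 (SE 0.11, 95% interval 0.03 to 0.53, edgeR FDR 0.147). With 1 mouse left out it ran from 0.21 (without PBS 2-1, FDR 0.32) to 0.42 (without PBS 2-5, FDR 0.0137). Per length, Max reached 16.5 ± 3.0 CPM per kb in PBS and 20.1 ± 1.74 in LLC1 mice, above the summed paralogs (2.70 ± 0.553 and 2.09 ± 0.608) in both groups.

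Of the antagonists, Mxi1 passed the test. Mxi1 (ENSMUSG00000025025, chr19:53310506-53375810), an MXD-family repressor of MYC targets, measured 42.4, 42.7, 43.1 and 47.8 CPM in the LLC1 mice. In the PBS mice it measured 35.3, 35.8, 40.2 and 36.4 CPM. The groups did not overlap, with LLC1 2-2 and PBS 2-1 each standing above the rest of its group. The log2 fold change was 0.25 (SE 0.07, 95% interval 0.10 to 0.41, edgeR FDR 0.0459). With single mice left out the call was kept in 1 of 8 fits (without PBS 2-1, FDR 0.0429), and without LLC1 2-2 the log2 fold change was 0.20 with an FDR of 0.138. The log2 fold change ran from 0.20 to 0.29 over these 8 fits. The call was also lost when libraries were scaled by their totals alone (0.20, FDR 0.195) and with upper-quartile factors (0.25, FDR 0.0512).

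Mnt (ENSMUSG00000000282, chr11:74830920-74845725), a MAX-binding repressor expressed in most tissues, measured 19.7, 21.6, 19.1 and 19.3 CPM in the LLC1 mice and 12.5, 16.4, 17.2 and 17.6 CPM in the PBS mice. The groups did not overlap, and PBS 1-1 was the lowest. The log2 fold change was 0.31 (SE 0.11, 95% interval 0.08 to 0.54, edgeR FDR 0.0844). Mxd1 (ENSMUSG00000001156, chr6:86647044-86669159), known as a repressor induced when cells leave the cycle and differentiate, measured 8.07, 10.5, 8.86 and 10.1 CPM in LLC1 and 6.86, 7.01, 7.89 and 8.20 CPM in PBS mice. Only the lowest LLC1 mouse fell within the PBS range. Its log2 fold change was 0.32 (SE 0.12, 95% interval 0.07 to 0.57, edgeR FDR 0.111).

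Mxd4 (ENSMUSG00000037235, chr5:34173887-34187720) was the most abundant antagonist, with 24.9 ± 5.28 CPM per kb in PBS and 26.7 ± 0.743 in LLC1 mice. Its values were 103, 103, 101 and 108 CPM in the LLC1 mice and 80.0, 93.9, 86.8 and 126 CPM in the PBS mice. PBS 2-5 exceeded every LLC1 mouse and the other 3 PBS mice lay below all of them. The log2 fold change was 0.10 (95% interval -0.15 to 0.35, edgeR FDR 0.635). With 1 mouse left out it ran from 0.02 (without PBS 1-1, FDR 0.929) to 0.25 (without PBS 2-5, FDR 0.0419). Because Mxd4 supplied 65.4 ± 0.715% of the summed level of the 4 antagonists in LLC1 and 67.8 ± 3.79% in PBS mice, that sum overlapped between groups as well (40.9 ± 1.28 and 36.5 ± 5.72 CPM per kb). The antagonist sum divided by the paralog sum was 27.9, 18.1, 21.9 and 15.0 in LLC1 and 9.56, 11.6, 14.4 and 21.6 in PBS mice, again overlapping.

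In the parallel branch, neither member passed the test. Mlx (ENSMUSG00000017801, chr11:101087277-101092207) measured 15.4 to 19.6 CPM in LLC1 and 14.2 to 16.9 CPM in PBS mice, a log2 fold change of 0.12 (95% interval -0.09 to 0.33, edgeR FDR 0.46). Mlxip (ENSMUSG00000038342, chr5:123394798-123457932), which encodes MondoA, measured 76.5 to 96.3 CPM in LLC1 and 71.6 to 94.9 CPM in PBS mice, a log2 fold change of 0.08 (95% interval -0.13 to 0.30, edgeR FDR 0.638). With 1 mouse left out the log2 fold change ran from 0.05 to 0.16 for Mlx and from 0.02 to 0.16 for Mlxip, with 0 calls. The intervals put any difference of Mlx and Mlxip well short of that of Mycn. Exons of Mlx share 19.3% of their bases with Psmc3ip on the other strand, and those of Mxd4, Mlxip and Mxi1 share 6.06, 3.21 and 2.84% with antisense genes. The strand setting of the counting is not given in the sources used here, so reads that fall in these shared bases cannot be assigned to one strand.

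Set beside each other, 1 of the 9 members tested was called lower and 1 higher, against 4.61% and 4.12% of all 16111 genes tested, or 8.73% in either direction. Over all genes 743 were lower and 663 higher, a split that became 793 and 225 when libraries were scaled by their totals alone. Of the same genes DESeq2 called 847 lower and 910 higher, and limma-voom 703 and 682. The log2 fold change was above 0 for 8 of the 9 (47.9% of all genes), with a median of 0.25 against -0.01 over all genes. At an unadjusted p under 0.05, 4 of the 9 were higher (Mxi1, Mnt, Mxd1 and Max), against 12.4% of all genes. The groups were apart with LLC1 below for Mycn (8.27% of all genes) and with LLC1 above for Mxi1 and Mnt (8.89% of all genes). None of the 9 changed sign under any scaling tried or with any mouse left out.

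**Figure D3:**
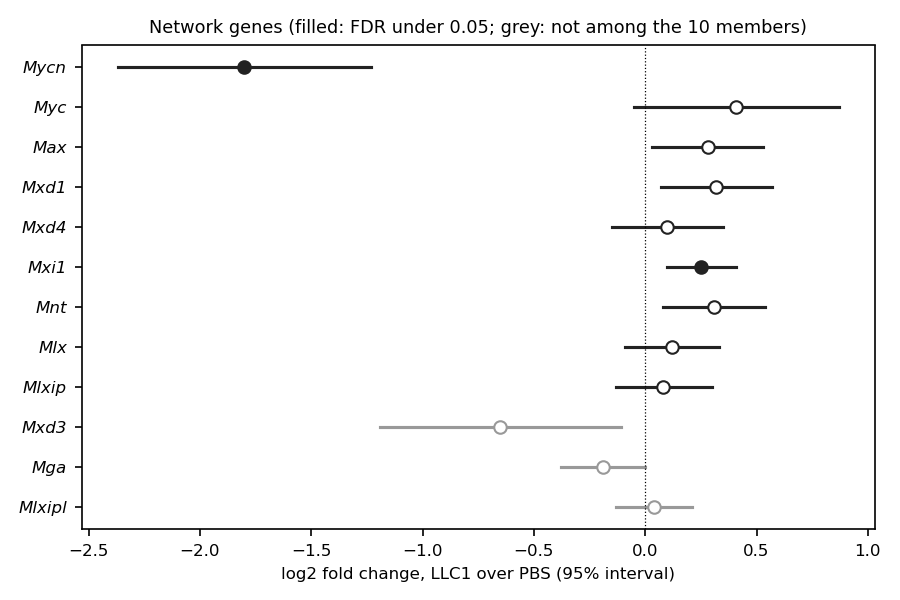
Log2 fold change, LLC1 over PBS, with its 95% interval for the 9 members tested (black) and 3 further network genes (grey), filled where the edgeR FDR is under 0.05. Mycn stands alone at -1.80, Mxi1 is filled at 0.25, and the other 7 members lie between 0.08 and 0.41.

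Of the network genes that were not chosen as members, Mxd3, an MXD protein of dividing cells, was at 1.83 ± 0.573 CPM in LLC1 and 2.86 ± 0.678 CPM in PBS mice (log2 fold change -0.65, SE 0.25, edgeR FDR 0.124). Mga, a large MAX-binding repressor, was at 55.4 ± 3.09 and 63.4 ± 8.44 CPM (-0.19, FDR 0.205), and Mlxipl at 50.4 ± 4.55 and 49.1 ± 3.51 CPM (0.04, FDR 0.799). None of the 3 passed the test in edgeR, DESeq2 or limma-voom, and 1 (Mxd3) was lower at an unadjusted p under 0.05.

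In order of level per length in PBS mice, Mxd4 (24.9 ± 5.28 CPM per kb) and Max (16.5 ± 3.0) led, with ranges that overlapped, from 20.6 to 32.5 and from 14.1 to 20.9. Mlxip (9.95 ± 1.20), Mlx (7.75 ± 0.547), Mxi1 (6.57 ± 0.395) and Mnt (3.45 ± 0.504) followed. Mlxip and Mlx were apart in their ranges, Mlx and Mxi1 overlapped by a narrow margin, and Mnt was clear of Mxi1. The lowest were Mxd1 (1.61 ± 0.141), Mycn (1.33 ± 0.442), Myc (1.29 ± 0.0906) and Mycl (0.0801 ± 0.0470), of which Mxd1, Mycn and Myc could not be ranked beyond their spread except that Mxd1 lay above Myc in every PBS mouse. In LLC1 mice Mycn moved below Myc without overlap (0.281 to 0.443 against 1.12 to 2.38 CPM per kb) and the group means of the others kept their order, although Myc lay above Mxd1 in LLC1 2-2 (2.38 against 2.17 CPM per kb).

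The cofactors of the network did not pass the test. Of 17 genes for histone acetyltransferase, chromatin and repressor complexes that MYC or MXD proteins recruit, 0 were called in either direction by edgeR, with a median log2 fold change of 0.00. At an unadjusted p under 0.05 the list had 1 lower (13% of all genes) and 4 higher (12.4% of all genes), and DESeq2 and limma-voom also called 0. Of 16 genes that govern the turnover of MYC proteins, 1 was called lower (4.61% of all genes) and 0 higher (4.12%) by edgeR. At an unadjusted p under 0.05, 3 were lower and 2 higher, against 13% and 12.4% of all genes. DESeq2 and limma-voom each called 1. The gene edgeR called was Aurka, a mitotic kinase known to shield N-MYC from degradation, at 0.818 ± 0.282 CPM in LLC1 and 1.70 ± 0.372 in PBS mice (-1.05, SE 0.28, FDR 0.039). The call was lost in 4 of the 8 fits with 1 mouse left out (LLC1 1-3, 1-5, 2-2 or PBS 1-3), and with a minimum of 10 counts in every mouse Aurka was not tested. Fbxw7, Huwe1, Skp2 and the other ubiquitin ligases of the list were not called.

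Classical targets of MYC were taken in 4 lists, and in 3 of them no gene passed the test. Of 22 ribosome biogenesis genes, such as Ncl, Npm1 and Fbl, 0 were called by edgeR and 10 had a positive log2 fold change, with a median of 0.00. The lowest p among them was that of Rrp12, a ribosome export factor (0.18, FDR 0.111). Of 13 genes for nucleotide and polyamine synthesis 0 were called (median 0.00), and the lowest p was that of the purine enzyme Gart (0.22, FDR 0.0777). Of 11 translation and metabolism genes 0 were called (median -0.04), with the translation factor Eif5a lowest in p (0.18, FDR 0.0659). At an unadjusted p under 0.05 the first 2 of these lists had 3 higher each and the last had 1, with 0 lower in all of them, against 12.4% higher and 13% lower over all genes. DESeq2 called 1 gene of the last list higher (910 over all genes) and 0 of the other lists, and limma-voom called 0 in all.

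Of the 11 cell cycle targets, 3 were called lower and 0 higher by edgeR (background 4.61% and 4.12%, as above), and 7 were lower (13% of all genes) and 0 higher at an unadjusted p under 0.05. The median log2 fold change was -0.60, and 1 of the 11, Ccnd2, had a positive value (0.04). Tfrc, the transferrin receptor that brings iron into cells, was at 54.0 ± 17.2 CPM in LLC1 and 173 ± 61.0 CPM in PBS mice (log2 fold change -1.68, SE 0.27, edgeR FDR 0.00476). Tfrc is not a cell cycle gene by function and is, like Mycn, on the list the study drew from these mice. Its call is therefore not independent evidence. E2f2, a transcription factor for the start of DNA replication, was at 0.452 ± 0.230 and 1.18 ± 0.407 CPM (-1.42, SE 0.37, FDR 0.034). The phosphatase Cdc25a was at 4.29 ± 0.440 and 5.95 ± 0.669 CPM (-0.47, SE 0.13, FDR 0.0468). With 1 mouse left out the count called lower ran from 1 to 6, the 6 without PBS 1-1, and it was 1 in 5 of the 8 fits. Calls over all genes moved as well, to 1041 lower without PBS 1-1 and 330 lower without PBS 1-3, against 743 with all mice. DESeq2 called 2 of the list lower (847 over all genes) and limma-voom 3 (703 over all genes).

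Of 7 genes that MYC is known to repress, 6 were tested, 2 were called higher (4.12% of all genes) and none lower, and all 6 had positive values (47.9% of all genes) with a median of 0.26. The list was drawn up with results of these mice known, so these counts are a description. Gadd45b, a stress-induced regulator of growth arrest, was at 8.16 ± 1.70 CPM in LLC1 and 3.98 ± 0.439 CPM in PBS mice (1.03, SE 0.16, edgeR FDR 0.00432) and is on the list of the study. Ndrg2, a growth-restraining gene that is abundant in heart, was at 1650 ± 39.0 and 1330 ± 71.1 CPM (0.31, SE 0.06, FDR 0.0124). Cdkn1a, which encodes the cell cycle inhibitor p21, had a log2 fold change of 0.49 (FDR 0.165). Called genes of this list numbered 1 when libraries were scaled by totals alone and without PBS 1-3. Over all genes these settings called 225 and 212 higher, against 663 in the main fit.

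Of 3 targets of the MondoA branch 2 were tested, and 1 was called lower (4.61% of all genes) and 0 higher. Txnip, an inhibitor of glucose uptake, was at 1040 ± 152 CPM in LLC1 and 900 ± 216 CPM in PBS mice (0.21, edgeR FDR 0.41). Its relative Arrdc4 was at 11.5 ± 0.517 and 16.6 ± 3.84 CPM (-0.53, SE 0.15, FDR 0.0474), with groups that overlapped, and its call was lost with limma-voom and in 7 of the 8 fits with 1 mouse left out. Pklr was near 0 and was not tested.

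Of 11 regulators that act upstream of Mycn or Myc, 10 were tested, 2 were called lower (4.61% of all genes) and 0 higher by edgeR, and 3 were lower (13% of all genes) and 2 higher (12.4% of all genes) at an unadjusted p under 0.05. By DESeq2, 2 were lower and 1 higher (847 and 910 over all genes). By limma-voom 1 was lower and 0 higher (703 and 682 over all genes). Foxm1, a factor of dividing cells, was at 0.722 ± 0.0838 CPM in LLC1 and 2.55 ± 1.43 CPM in PBS mice (-1.84, SE 0.38, edgeR FDR 0.0132). Gli1, a readout of Hedgehog signalling, was at 0.952 ± 0.253 and 2.08 ± 0.905 CPM (-1.16, SE 0.32, FDR 0.0434). For this list the count called lower was 1 in 7 of the 8 fits with 1 mouse left out. It was 3 without PBS 1-1, where calls over all genes rose from 743 to 1041 lower. It was also 1 with the covariate from the mouse code, and 1 gene was called higher with the likelihood ratio test and with all genes that had a count. Stat3 had a log2 fold change of 0.28 (FDR 0.0702). Of 5 other E-box factors (Tfeb, Tfe3, Mitf, Usf1 and Usf2) 0 were called by edgeR, DESeq2 or limma-voom, and 1 was lower and 2 higher at an unadjusted p under 0.05, again against 13% and 12.4%. Usf2 was lowest in p (0.19, FDR 0.0777). Without PBS 1-1 edgeR called 2 of the list higher, while its calls over all genes rose from 663 to 908 higher.

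**Figure D4:**
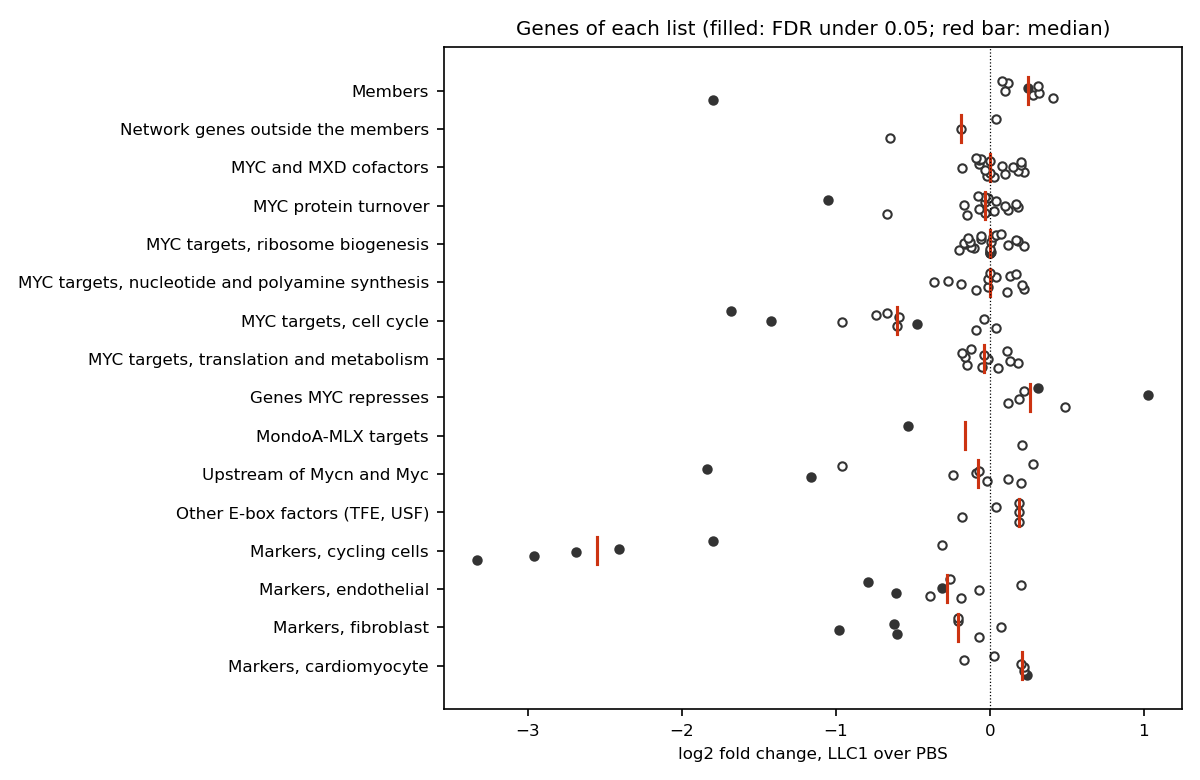
Log2 fold change, LLC1 over PBS, of every tested gene in each list (1 point per gene, filled where the edgeR FDR is under 0.05), with the list median as a red bar. The target lists for ribosome biogenesis, nucleotides and translation centre on 0.00 to -0.04, the cell cycle targets on -0.60 and the cycling cell markers on -2.55.

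Genes of dividing cells and of several cell types differed between the groups alongside Mycn, and their part in the results above was not tested. In bulk tissue, fewer cells of a type and less RNA per cell cannot be told apart. In the counts of markers that follow, the shares over all genes are 4.61% lower and 4.12% higher for edgeR calls, and 13% lower and 12.4% higher at an unadjusted p under 0.05. Over the same 16111 genes DESeq2 called 847 lower and 910 higher, more than the 743 and 663 of edgeR. Limma-voom called 703 lower and 682 higher. Of 8 cycling cell markers 6 were tested and 5 fell (Top2a, Mki67, Cdk1, Birc5 and Kif11), with a median log2 fold change of -2.55. The summed level of all 8 was 23.6, 24.9, 34.8 and 19.7 CPM in LLC1 and 42.3, 72.6, 32.5 and 85.0 CPM in PBS mice. The largest share of that sum in LLC1 mice was Cenpf, which was not called (21.5 ± 5.63 CPM in LLC1 and 26.6 ± 7.82 CPM in PBS mice, log2 fold change -0.31, FDR 0.409). The groups did not overlap for any of the 5 that fell, against 8.27% of all genes with LLC1 below and no overlap. Endothelial markers summed to 848 to 933 CPM in LLC1 and 943 to 1210 CPM in PBS mice, and 3 of 8 fell (Kdr, Emcn and Cldn5, median -0.28), with 6 lower at an unadjusted p under 0.05, 5 called by DESeq2 and 3 by limma-voom. Fibroblast markers summed to 912 to 988 and 1010 to 1400 CPM, and 3 of 7 fell (Col1a1, Col3a1 and Lum, median -0.21), with 4 lower at an unadjusted p under 0.05, 4 called by DESeq2 and 2 by limma-voom.

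Cardiomyocyte markers summed to 78800 to 82500 CPM in LLC1 and 67500 to 70600 CPM in PBS mice, and 1 of 6, Myh6, rose, with 4 higher at an unadjusted p under 0.05, 3 called by DESeq2 and 2 by limma-voom. Pericyte and smooth muscle markers summed to 793 to 855 and 902 to 1070 CPM, and 0 of 6 were called by edgeR (median -0.15), 3 being lower at an unadjusted p under 0.05, 1 by DESeq2 and 0 by limma-voom. Macrophage markers overlapped in their sums (153 to 193 and 162 to 235 CPM), with 2 of 6 tested called lower (Mrc1 and Cx3cr1), 4 lower at an unadjusted p under 0.05, 2 called by DESeq2 and 1 by limma-voom. Neutrophil markers were low throughout (3.12 to 6.06 and 1.24 to 2.92 CPM), and S100a8 and S100a9 rose (2 called by limma-voom and 1 by DESeq2), while lymphocyte markers stayed under 3 CPM in sum and were not tested. Erythroid sums overlapped (1430 to 5180 and 1560 to 3100 CPM) and so did atrial sums (113 to 339 and 123 to 249 CPM), with 0 genes of either list called by edgeR, DESeq2 or limma-voom and 1 atrial gene lower at an unadjusted p under 0.05. Of the skeletal muscle markers Ckm, which heart also expresses, rose, and Myh4 was at 0 in every mouse. The drop in Mycn, 3.48-fold, was larger than that of any tested endothelial or fibroblast marker and smaller than that of Top2a, Mki67, Cdk1 and Birc5.

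The genes whose pattern over the 8 mice lay nearest to that of Mycn were Prdm1, Egr3, Thbs1, Meox1 and Bcl6b. Likeness was measured as the root mean square difference of log2 CPM after each gene was centred on its own mean, and it was 0.303, 0.326, 0.328, 0.329 and 0.348 for these 5, against a median of 0.93 over all other genes tested. Prdm1, a transcriptional repressor, went from 5.61 ± 0.96 CPM in PBS to 1.84 ± 0.224 CPM in LLC1 mice. Egr3, an immediate early zinc finger factor, went from 1.64 ± 0.619 to 0.513 ± 0.164 CPM, and Thbs1, the secreted glycoprotein thrombospondin 1, from 34.6 ± 20.1 to 10.2 ± 1.64 CPM. The homeobox gene Meox1 went from 20.7 ± 3.85 to 8.33 ± 0.612 CPM, and Bcl6b, a repressor related to BCL6, from 42.9 ± 5.12 to 16.1 ± 3.28 CPM. These 5 were chosen for this pattern, so their values are a description, and Prdm1, Thbs1, Meox1 and Bcl6b are also on the list of the study. The other tested members were farther from Mycn than that median, from 0.984 for Mlxip to 1.112 for Mnt.

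**Figure D5:**
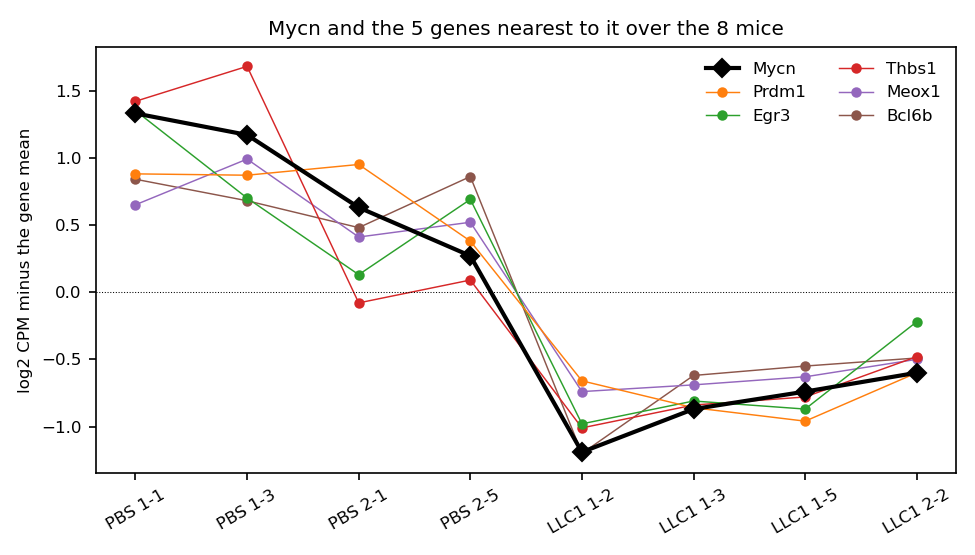
Log2 CPM minus the mean of each gene over the 8 mice, for Mycn (black) and the 5 genes nearest to it; lines only join the points of a gene. Mycn runs from 1.33 in PBS 1-1 to 0.27 in PBS 2-5 and from -0.60 to -1.19 in LLC1 mice, and all 5 genes lie below 0 in every LLC1 mouse.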

How the data were processed

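Gene-level read counts, whole numbers and not normalized, were deposited by the authors for 4 LLC1 and 4 PBS mice. They were made from 150-base paired-end TruSeq reads aligned to mm10. The submitters' processing notes name CASAVA, STAR and featureCounts, and versions, annotation and strand setting are not given in the sources used here.

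Counts were compared with edgeR 4.0.16 in R 4.3.3, using filterByExpr (16111 of 43346 genes kept), TMM factors and the quasi-likelihood F-test, with Benjamini-Hochberg adjustment over all genes tested and calls at an FDR under 0.05. No covariate was used. Values are TMM-normalized CPM, per kilobase of the deposited gene length where genes are compared, and mean ± SD. The 70 arrangements of 4 against 4 mice served the exact permutation tests, on log2 CPM for single genes and on log2 count ratios with a prior of 0.5. For likeness and principal components, 2 counts were added before taking log2 CPM. The code was tested on simulated data. Exon overlaps came from GENCODE M21 and near-identical transcripts from BLAST 2.17.0. Nothing states whether the mice came from separate cages or litters.

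The members, gene lists and tests were chosen with earlier results of these data known. Named were all members, list genes with an FDR under 0.05 and the lowest p of each list, the 5 genes nearest to Mycn, and a few genes a statement turned on (Ccnd2, Cdkn1a, Txnip and Stat3). A single gene covered by this rule is left out and is not reported here, and the others are given. Alternatives were DESeq2 1.42.0, limma-voom (limma 3.58.1), the likelihood ratio test, robust empirical Bayes, 3 other scalings, 2 other filters, a covariate from the first number of the mouse code, and each mouse left out.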

Additional observations from a re-analysis of the deposited data

Results flagged for a closer look

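Of 42 sets of 4 values checked for a mouse far from the rest of its group, 2 were past the limit of Dixon's test, where chance alone gives about 1 in 20. Mxi1 in LLC1 2-2 was at 47.8 CPM while the other 3 LLC1 mice lay between 42.4 and 43.1 CPM. Without this mouse the log2 fold change of Mxi1 was 0.20 with an edgeR FDR of 0.138. Mga in PBS 1-1 was at 76.0 CPM while the other 3 PBS mice lay between 58.9 and 59.3 CPM. Without this mouse the log2 fold change of Mga went from -0.19 to -0.09 (edgeR FDR 0.381). The cause was not tested for either.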

How the results depend on the processing

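Mycn was called lower in all 10 other settings with all mice (log2 fold change -1.87 to -1.71, FDR 2.47e-08 to 0.00565) and in all 8 fits with 1 mouse left out (-1.98 to -1.63, FDR 0.00114 to 0.0135), so the count of members called lower was 1 throughout. The count of members called higher was 0 with upper-quartile factors and with library totals only, and ran from 0 to 2 with 1 mouse left out (2 without PBS 2-5, Max and Mxd4 in place of Mxi1). Over all genes, library totals only gave 225 higher and 793 lower, against 663 and 743 with TMM, and leaving out 1 mouse gave 212 to 908 higher and 330 to 1041 lower, both lowest without PBS 1-3. The median log2 fold change of all genes was -0.065 with library totals, against -0.01. The sign of Mlxipl turned with library totals only (-0.01), and its range with 1 mouse left out was -0.01 to 0.09. The cause of these moves was not tested. The differences in the ratios of Mycn to Myc and to Max kept their direction (-2.27 to -1.96 and -2.39 to -1.89 with 1 mouse left out). No paired analysis was possible because the groups share only 1 mouse code, carried by different animals. Mycn was read from 14 to 75 counts per mouse and Mycl from 1 to 7, which limits the precision of the first and leaves no usable estimate for the second.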
